A study of Mus musculus with 3 samples.

Results

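The cytokines that a blood-forming niche presents to stem and progenitor cells were followed here through 8 genes: Kitl, Thpo, Epo, Angpt1, Csf1, Flt3l, Jag1 and Angptl2. They were taken by name from the gene name given for each array spot. This gave 16 probes on 34 spots, out of 41174 probes, the named ones of which cover 19712 genes. All 16 probes carry the current symbol of their gene. Messenger RNA was measured in total RNA of adult liver, fetal liver and bone marrow of C57BL/6 mice, an inbred strain, with 1 single-colour Agilent array per tissue. Adult livers were taken at 12 weeks of age and fetal livers at gestation day 13.5, and the wording of the protocol does not settle whether the adult age also applies to the marrow donors. No source used here gives the sex of the mice or how many were used for a sample, and no genetic change or treatment is named for any of the 3 groups. With 1 array per tissue there are no biological repeats, so no test was possible, and every difference below is one between 3 RNA samples.

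In the mouse fetus the liver is the main site of blood formation, and around birth this role passes to the bone marrow. Niche cells there act on blood cells through secreted or membrane-bound ligands. Stem cell factor (Kitl), thrombopoietin (Thpo), angiopoietin 1 (Angpt1) and the Notch ligand Jag1 are known for acting on stem and progenitor cells. Erythropoietin (Epo), colony stimulating factor 1 (Csf1) and Flt3 ligand (Flt3l) are known for driving red cell, macrophage and dendritic or lymphoid output.

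The promoters of Kitl and Thpo are shown for the following reasons. With 1 probe standing for each gene, Kitl was the one of the 8 past 4-fold between tissues. The probes of Thpo disagreed, and another of them was past 4-fold. Each line gives the 250 bases before an annotated gene start, from RefSeq on GRCm38.p6, 5′ to 3′ on the gene's own strand. Capitals mark any match, on either strand, to 6 short motifs: TATAAA (the TATA box), GGGCGG (the GC box), AGATAA (bound by GATA factors), ACGTG (the core of hypoxia response elements), CCGGAA (bound by ETS factors) and TGTGGT (bound by RUNX factors). The search covered the 300 bases from 250 before to 50 after the start, and motifs can overlap.
Kitl, chr10:100015571-100015820, plus strand: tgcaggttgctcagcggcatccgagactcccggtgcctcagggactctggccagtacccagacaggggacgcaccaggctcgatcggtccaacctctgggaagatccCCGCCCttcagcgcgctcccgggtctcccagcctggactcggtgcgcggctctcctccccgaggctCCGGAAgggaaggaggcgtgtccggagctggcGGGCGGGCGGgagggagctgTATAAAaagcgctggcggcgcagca
Thpo, chr16:20730599-20730848, minus strand: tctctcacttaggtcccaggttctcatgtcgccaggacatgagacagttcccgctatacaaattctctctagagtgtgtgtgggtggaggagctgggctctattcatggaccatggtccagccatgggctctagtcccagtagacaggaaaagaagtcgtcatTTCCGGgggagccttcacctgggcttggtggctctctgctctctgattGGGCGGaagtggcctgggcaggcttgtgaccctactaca
Thpo, second start, chr16:20734512-20734761, minus strand: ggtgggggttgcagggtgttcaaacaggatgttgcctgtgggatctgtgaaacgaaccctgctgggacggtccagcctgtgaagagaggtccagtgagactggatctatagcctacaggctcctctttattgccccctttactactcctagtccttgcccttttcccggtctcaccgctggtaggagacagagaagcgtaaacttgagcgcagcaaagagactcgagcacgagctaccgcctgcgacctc
The Kitl window holds TATAAA from base -25 and CCGGAA from base -77, with GGGCGG from bases -143, -45 and -41, the last 2 overlapping. Its GC content over 300 bases is 68.7%, against a median of 52.7% over 32851 RefSeq promoters. The first Thpo window holds GGGCGG from base -39 and CCGGAA from base -87, and the second holds none of the 6 motifs. Promoter windows were matched for 7 of the 8 genes, 8 windows in all, and that of Angpt1 was not. GGGCGG lies in 5 of the 8 windows and in 35.7% of all promoters, CCGGAA in 2 windows and 14.9%, and TATAAA in 1 window and 13.6%. The motifs of GATA factors, of hypoxia response and of RUNX factors lie in 0 of the 8 windows and in 11.2%, 19.6% and 16.8% of all promoters. These matches describe letters in a window and no binding was measured.

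Signals are the background-subtracted spot intensities of the scanner software. For comparisons, each was divided by the 75th percentile of gene spots on its array (adult liver 296.5, fetal liver 386, bone marrow 894.5), and these values are called scaled signals. A 4-fold difference of scaled signals was used as the call, and 2-fold as an alternative. A probe that the software did not call well above background has only a bound, written "at least". The lowest probe signal called well above background was 18.9, 15.0 and 23.7 on the 3 arrays in the same order. On log2, the median gene measured in both tissues differed by -0.03 (fetal minus adult liver), 0.25 (fetal liver minus marrow) and 0.16 (adult liver minus marrow). The scaling matters most for marrow. With 7 spike-in probes as the standard those medians became 0.50, -2.06 and -2.68. Genes past 4-fold then split into 2629 higher in fetal and 1475 in adult liver, into 319 to 7704 for fetal liver and marrow, and into 845 to 9670 for adult liver and marrow. Under the main scaling the splits were 1711 to 2007, 1370 to 1218 and 2676 to 2139. With the median spot as the standard, the 2 splits against marrow were 1003 to 1579 and 2209 to 2654.

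**Figure D1:**
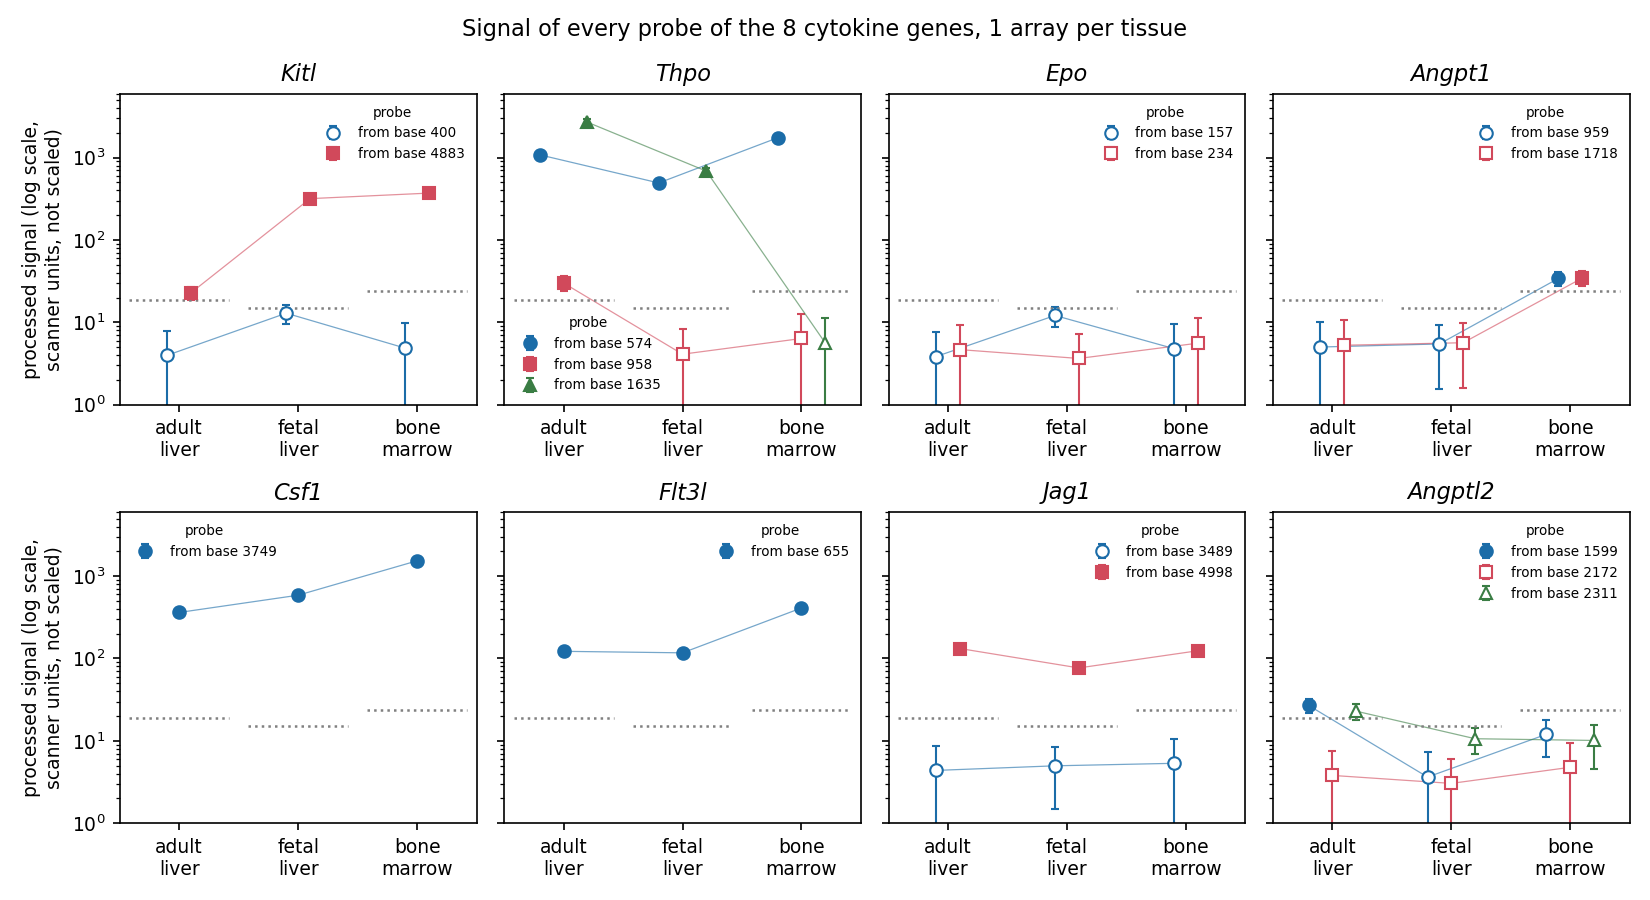
Processed signal in scanner units on a log axis, before scaling, for every probe of the 8 genes in adult liver, fetal liver and bone marrow. Probes are named by their first base in the transcript. Filled symbols are well above background and open ones are not. Bars are the SD over repeat spots for the 10-spot Kitl and Csf1 probes and otherwise the scanner's own error for the spot, with the lower bar cut short where it would pass 0. Dotted lines mark the lowest signal called well above background on each array. Kitl stands at 22.9 in adult liver against 317 and 371 elsewhere, the Thpo probes part in bone marrow, and both Epo probes stay below the dotted lines.

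Kitl encodes stem cell factor, the ligand of the receptor Kit, and its signal was low in adult liver and higher in both blood-forming tissues. Its bright probe (A_51_P133936, chr10:99562481-99562540 on mm9, from base 4883 of the transcript) is printed 10 times on each array. The adult liver spots averaged 22.9 ± 4.11 (SD, n = 9 spots, range 17 to 30). The fetal liver spots averaged 317 ± 16.4 (SD, n = 10 spots, range 287 to 341) and the marrow spots 371 ± 10.9 (SD, n = 10 spots, range 355 to 385). Every fetal and marrow spot was brighter than every adult liver spot, while 1 adult liver spot was left out for an outlier flag. These spots repeat the measurement of 1 RNA sample and not the animals.

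After scaling, Kitl stood at 0.076 in adult liver against 0.821 in fetal liver, with 0.414 in marrow. Fetal liver thus held 10.8-fold more Kitl signal than adult liver, and Kitl was 5.45-fold higher in marrow than in adult liver. Between fetal liver and marrow it differed 1.98-fold, with fetal liver higher. Of all genes compared, 11.1% differed at least as much as Kitl did between the livers, and 26.7% as much as it did from adult liver to marrow. The adult liver signal lay at the edge of detection, with 5 of 9 spots well above background. Were that probe counted as not well above background, its own signal would still set the bound, and the folds would read as lower bounds of the same size. With a normexp background and an offset of 50, which exceeds the adult liver signal, the log2 differences of 3.43 (fetal minus adult liver) and -2.45 (adult liver minus marrow) became 1.76 and -0.86, and both calls were lost. The call between adult liver and marrow was also lost with the deposited normalized column (-1.38) and with the mean of both Kitl probes (-0.57). That column holds the scanner's signal error divided by a constant of each array, not the signal. The second Kitl probe (A_52_P572571, chr10:99539380-99539439, from base 400) gave 3.98 ± 3.96, 12.9 ± 3.33 and 4.86 ± 4.84 (signal ± scanner error) in adult liver, fetal liver and marrow. It was not well above background on any array, and its fetal liver signal was the one of the 3 that the software called above background at all.

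**Figure D2:**
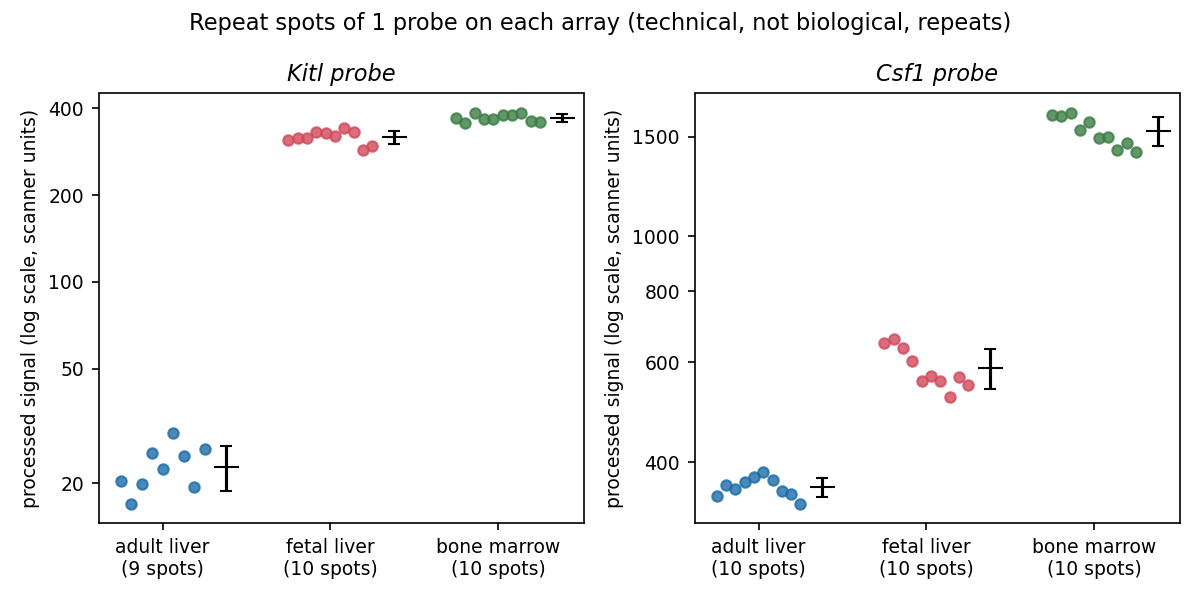
Processed signal in scanner units, on log axes, of each repeat spot of the Kitl and Csf1 probes, ordered within a tissue by spot number. Black marks give the mean and SD over spots of 1 array. The Kitl spots of adult liver, 17 to 30, lie apart from all others, and the Csf1 spots of the 3 arrays do not overlap before scaling, running from 338 to 384, 521 to 659 and 1410 to 1650.

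Thpo encodes thrombopoietin, the main regulator of platelet production, for which the liver is a known source. It was measured by 3 probes of 1 spot each, and they agree on the livers and disagree on bone marrow. The probe from base 574 (A_51_P385086), which spans 1968 bases of chr16:20726532-20728499 (minus strand), gave 1080 ± 108, 492 ± 49.3 and 1740 ± 175 (signal ± scanner error) in adult liver, fetal liver and marrow. From base 1635, the probe A_52_P431164 (chr16:20725248-20725307) gave 2690 ± 269, 685 ± 68.6 and 5.61 ± 5.59. From base 958, A_52_P237232 (chr16:20725925-20725984) gave 30.0 ± 6.08, 4.10 and 6.36, and only its adult liver signal was well above background. So adult liver exceeded fetal liver on all 3 probes, whereas marrow was bright on the first and at background on the others.

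In scaled terms the first probe, which stands for the gene because it was well above background on all 3 arrays, read 3.64, 1.27 and 1.95. Adult liver was 2.86-fold above fetal liver and 1.87-fold above marrow, and marrow was 1.53-fold above fetal liver. With the base 1635 probe there was a 5.11-fold difference between adult and fetal liver. On that probe adult liver was at least 342-fold and fetal liver at least 67.0-fold above marrow. Its neighbour from base 958 put adult liver at least 2.60-fold above fetal liver and at least 3.82-fold above marrow. What sets the probes apart was not tested, and no value of Thpo in marrow can be given that holds for all its probes.

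Csf1 encodes the growth factor of macrophages, and its scaled signal differed by less than 1.5-fold between tissues. Its probe (A_51_P195506, chr3:107544333-107544392, minus strand, from base 3749) is also printed 10 times. The spots averaged 362 ± 14 in adult liver, 586 ± 47.6 in fetal liver, with 1533 ± 90.7 in marrow (SD, n = 10 spots each). Before scaling the 3 sets of spots do not overlap, and marrow is the brightest. After scaling they stood at 1.22, 1.51 and 1.71, so that marrow was 1.40-fold above adult liver and 1.13-fold above fetal liver, and fetal liver 1.24-fold above adult liver. Of all genes compared, 79.3%, 88.1% and 84.6% differed at least as much.

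Flt3l encodes the ligand of the receptor Flt3 and has 1 probe (A_51_P374337, chr7:52389282-52389341, from base 655). Its signals were 122 ± 12.9 in adult liver, 117 ± 12.2 in fetal liver, with 410 ± 41.4 in marrow (scanner error of 1 spot). The scaled signals were 0.411, 0.303 and 0.458. Marrow was thus 1.51-fold above fetal liver and 1.11-fold above adult liver, and adult liver 1.36-fold above fetal liver. A further probe lies outside the naming rule and was found after the values were seen (A_52_P644690, chr7:52386603-52386662), since the file ties it to Flt3l only through a shared transcript accession. It gave 522 ± 52.4, 978 ± 97.8 and 1620 ± 162, with fetal liver 1.44-fold above adult liver and 1.40-fold above marrow. The order of the livers is therefore opposite on these probes, within 1.5-fold either way.

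Jag1 encodes a membrane-bound ligand of Notch receptors, and its signal was moderate in all 3 tissues. The probe from base 4998 (A_52_P634090, chr2:136907433-136907492) gave 132 ± 13.9, 76.7 ± 8.35 and 124 ± 13.5 in adult liver, fetal liver and marrow. Scaled, these were 0.445, 0.199 and 0.139. Adult liver stood 2.24-fold above fetal liver and 3.21-fold above marrow, and fetal liver 1.43-fold above marrow. The scanner software flagged this spot as not found on each of the 3 arrays. The second probe (A_51_P280906, chr2:136908942-136909001, from base 3489) gave 4.37, 4.97 and 5.33 and was not well above background anywhere.

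Angptl2 encodes an angiopoietin-like protein known to support cultured blood stem cells, and it was near background throughout. Its probe from base 1599 (A_52_P93256, chr2:33099253-33099312) gave 26.9 ± 5.43 in adult liver, 3.63 in fetal liver, with 12.0 ± 5.70 in marrow, and only the first was well above background. Adult liver was at least 2.33-fold above fetal liver and at least 3.42-fold above marrow. A further one from base 2311 (A_52_P853177, chr2:33102102-33102159) gave 22.9 ± 5.14, 10.6 ± 3.66 and 10.1 ± 5.55, and the probe from base 2172 (A_52_P533930, chr2:33085511-33085570) gave 3.80, 3.04 and 4.77. Neither was well above background on any array. Another Angptl2 probe outside the naming rule (A_52_P663239, chr2:33099463-33099522), added after the values were seen, gave 4.18, 3.18 and 7.82 and was not well above background either.

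Angpt1 encodes angiopoietin 1, the ligand of the receptor Tek, also called Tie2, and was well above background in marrow alone. Its probe from base 1718 (A_52_P160328, chr15:42258569-42258628) gave 5.27 in adult liver, 5.65 in fetal liver, with 34.4 ± 7.08 in marrow. That from base 959 (A_52_P574140, chr15:42327896-42327955) gave 5.01, 5.46 and 34.1 ± 6.82. The probes agree within their errors, and both were well above background on the marrow array only. No fold is given, because the marrow signal after scaling, 0.0385, does not exceed the lowest scaled signal called well above background in adult liver, 0.0637, or in fetal liver, 0.0389. On the marrow array that lowest scaled signal was 0.0265, so signals could be called at a lower level there than in the livers.

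Epo encodes erythropoietin, which fetal liver and adult kidney are known to make, and neither of its probes was well above background in any tissue. The probe from base 234 (A_51_P143659, chr5:137925734-137925793) gave 4.66, 3.64 and 5.58 in adult liver, fetal liver and marrow. Starting at base 157, A_52_P444815 (chr5:137926273-137926332) gave 3.84, 12.1 ± 3.26 and 4.79. The fetal liver signal of that second probe was called above background but lay under 15.0, the lowest signal called well above it on that array. No level above that mark was measured for Epo in any tissue, and no fold is given. The kidney markers Umod and Slc12a1 were not well above background on any of the 3 arrays either.

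Counted over the 8 genes, 6 were well above background in RNA of adult liver, 5 in that of fetal liver and 6 in that of marrow. The counts and medians below take Thpo by its base 574 probe, the only one of its probes well above background in marrow. On its base 1635 probe Thpo was past 4-fold between the livers (5.11-fold, towards adult liver) and against marrow from both livers. Between fetal and adult liver 1 of 6 genes compared was past 4-fold, Kitl towards fetal liver, where 26.2% of 14186 genes were past it, 12.1% towards fetal and 14.1% towards adult liver. Between fetal liver and marrow 0 of 5 were past it, against 17.6% of 14677 genes, 9.33% towards fetal liver and 8.3% towards marrow. Between adult liver and marrow 1 of 6 was past it, again Kitl and towards marrow, against 33.8% of 14245 genes, 15% towards marrow and 18.8% towards adult liver. These counts are near the background or below it, and with 5 or 6 genes they say nothing about the 8 as a group. The median log2 difference of the 5 genes measured in both tissues was -0.44 (fetal minus adult liver), -0.18 (fetal liver minus marrow) and -0.16 (adult liver minus marrow). With the Angptl2 bound included, the first and the last became -0.80 and 0.37, so the sign of the last depends on that gene. At 2-fold, 4 of 6 were past the mark between the livers (Kitl towards fetal, Thpo, Jag1 and Angptl2 towards adult), against 53.7% of all genes. At that mark 0 of 5 were past it between fetal liver and marrow, against 42.1%, and 3 of 6 between adult liver and marrow (Kitl towards marrow, Jag1 and Angptl2 towards adult liver), against 60%.

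The comparisons with marrow depend on the scaling for most of the genes. With spike-in scaling, Thpo, Angpt1, Csf1 and Flt3l passed 4-fold over fetal liver, and Kitl, Angpt1, Csf1 and Flt3l over adult liver, all towards marrow, and each of the 6 genes compared was then higher in marrow than in either liver. With the mean of all probes in place of the chosen one, Thpo passed 4-fold towards adult liver against both other tissues and towards fetal liver against marrow, where its log2 difference turned from -0.61 to 2.70, and Kitl kept its call between the livers only. The excess of Kitl in fetal over adult liver held its direction under each of the 10 other settings tried for all genes and lost its call under normexp alone. Of these settings, the brightest probe, detected probes only and the 2-fold call left the value at 3.43 by construction, since probe and signals stayed the same. The deposited column among them reads the signal error and not the signal.

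**Figure D3:**
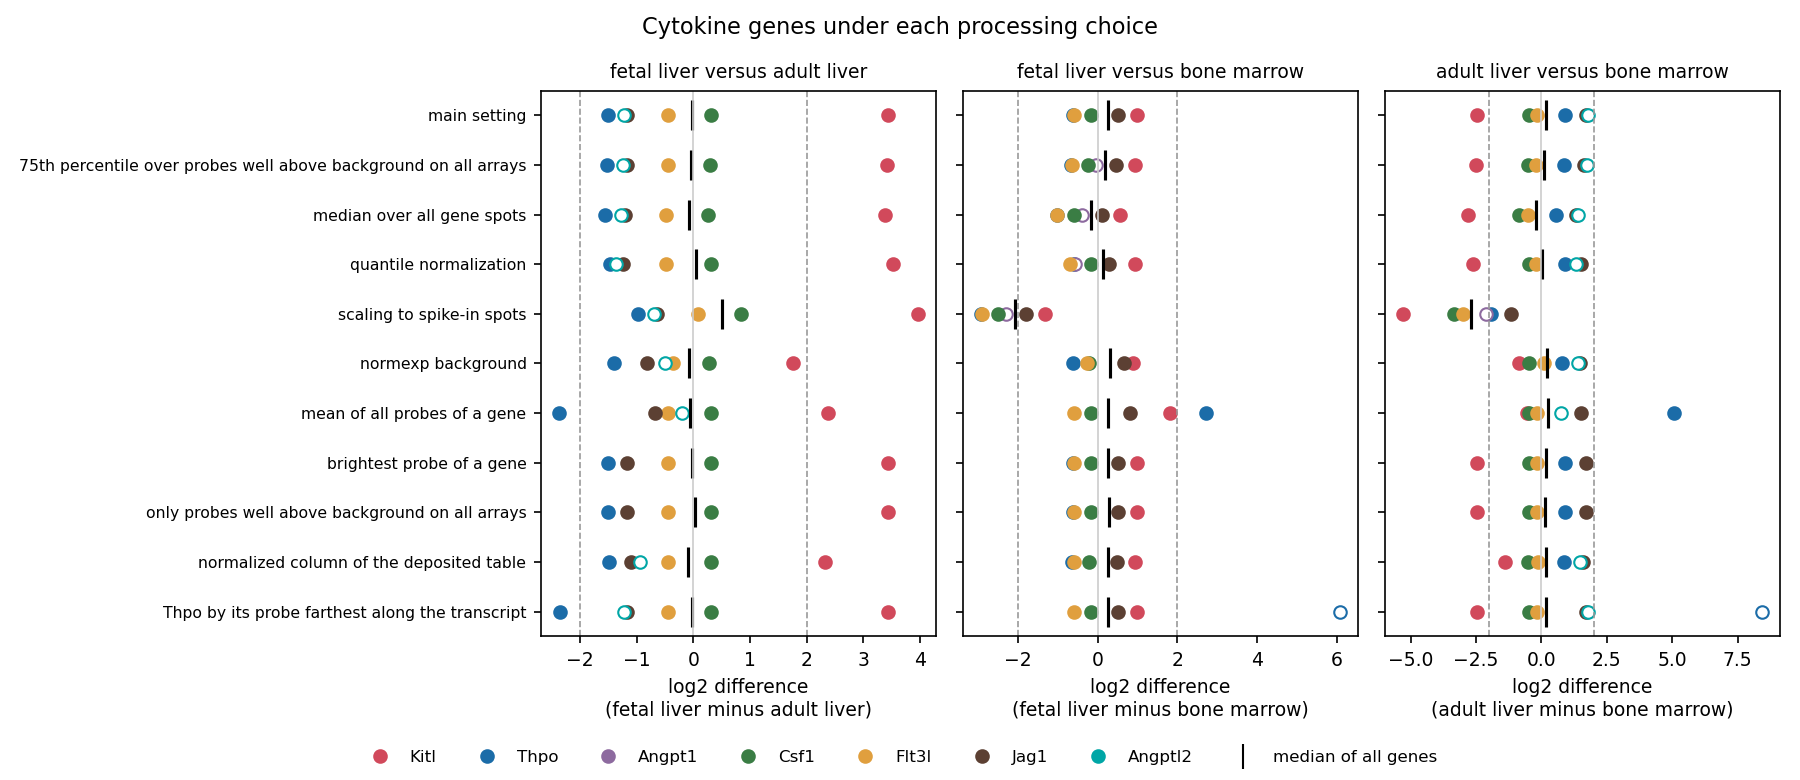
Log2 difference of scaled signals for each cytokine gene under the main setting and each alternative, in the 3 comparisons. Filled points were measured in both tissues, open points are bounds, black ticks give the median of all genes and dashed lines mark 4-fold. Kitl stays to the right in the first panel, at 3.43 in the main setting and 1.76 under normexp, spike-in scaling moves all genes and their median (-2.06 and -2.68) in the panels with marrow, and Thpo changes side with the choice of probe.

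The receptors of these cytokines were measured in the same RNA. Their list also holds Csf2rb, a chain of several myeloid cytokine receptors that is not particular to these cytokines. All 14 genes listed were well above background on all 3 arrays by their chosen probe. The choice favours such probes, and further probes of Tek, Csf1r, Csf2rb and Itgb1 were not well above background on every array. Kit and Epor were lower in adult liver than in both blood-forming tissues. Kit, the receptor of Kitl, gave signals of 74.5 ± 7.07, 599 ± 27.6 and 1348 ± 49.8 (SD over repeat spots) in adult liver, fetal liver and marrow, with scaled signals 6.20-fold higher in fetal and 6.02-fold higher in marrow than in adult liver. Epor, the receptor of Epo, gave 184 ± 19.1, 19200 ± 1920 and 18000 ± 1800 (scanner error), or 80.2-fold and 32.4-fold over adult liver after scaling. Between fetal liver and marrow they differed 1.03-fold and 2.47-fold, fetal liver being higher each time. So Kitl and its receptor Kit were both low in adult liver.

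Csf1r, Flt3, Pirb and Csf2rb were highest in marrow after scaling. Csf1r, the receptor of Csf1, gave 1640 ± 164, 810 ± 81.1 and 6230 ± 623, and stood 3.32-fold higher in marrow and 2.64-fold higher in adult liver than in fetal liver. A dimmer Csf1r probe well above background on all arrays differed by -1.56 on log2 (adult liver minus marrow), against -0.33 on the chosen one. Flt3, the receptor of Flt3l, gave 25.0 ± 4.70, 27.9 ± 4.14 and 140 ± 14.8, and was 2.17-fold higher in marrow than in fetal liver. Pirb, a leukocyte receptor that binds angiopoietin-like proteins, gave 1290 ± 129, 485 ± 48.7 and 78400 ± 7840, or 69.8-fold and 20.1-fold higher in marrow than in fetal and adult liver. Pirb belongs to a family of near-identical Pira genes that its probes may also read. Csf2rb, the shared beta chain of several myeloid cytokine receptors, was 10.4-fold and 10.7-fold higher in marrow on its chosen probe, and a further probe well above background on all arrays differed by -0.34 and -0.25 on log2 only.

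Tek, Tie1 and Notch4 were lower in marrow than in both livers, except with spike-in scaling. Tek, the receptor of Angpt1, gave 62.2 ± 7.71, 56.2 ± 6.68 and 58.0 ± 8.07, which after scaling put adult liver 3.24-fold and fetal liver 2.25-fold above marrow. Tie1, its relative, gave 99.0 ± 10.7, 169 ± 17.2 and 157 ± 16.4, with fetal liver 2.49-fold above marrow. Among receptors of Jag1, Notch4 gave 236 ± 24.2, 235 ± 23.8 and 117 ± 13.4, or 6.09-fold and 4.65-fold above marrow in adult and fetal liver. Notch1 and Notch2 were lowest in fetal liver, by 2.06-fold and 1.35-fold against adult liver and by 2.45-fold and 2.06-fold against marrow. Of 3 Notch2 probes, all well above background on all arrays, a second kept this order and the dimmest went the other way, with fetal liver above adult liver by 0.20 and above marrow by 0.94 on log2. Notch3 was highest in fetal liver, 2.15-fold over adult liver and 1.54-fold over marrow. The integrin chains Itga5 and Itgb1 stood 2.10-fold and 2.19-fold above marrow in fetal liver, though a dimmer Itgb1 probe differed there by -0.10 on log2.

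Past 4-fold, the receptors numbered 2 of 14 towards fetal liver and 0 towards adult liver, 1 towards fetal liver and 2 towards marrow, and 1 towards adult liver and 4 towards marrow. Csf2rb is among the 2 and among the 4 towards marrow. The shares of all genes were 12.1% and 14.1%, 9.33% and 8.3%, and 18.8% and 15% in the same order. Their median log2 differences were -0.29, 0.33 and -0.41. Under normexp the calls of Kit in both comparisons with adult liver and of Notch4 between fetal liver and marrow were lost, and that of Notch4 was also lost with the median spot as the standard. With spike-in scaling all 14 receptors were higher in marrow than in either liver.

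**Figure D4:**
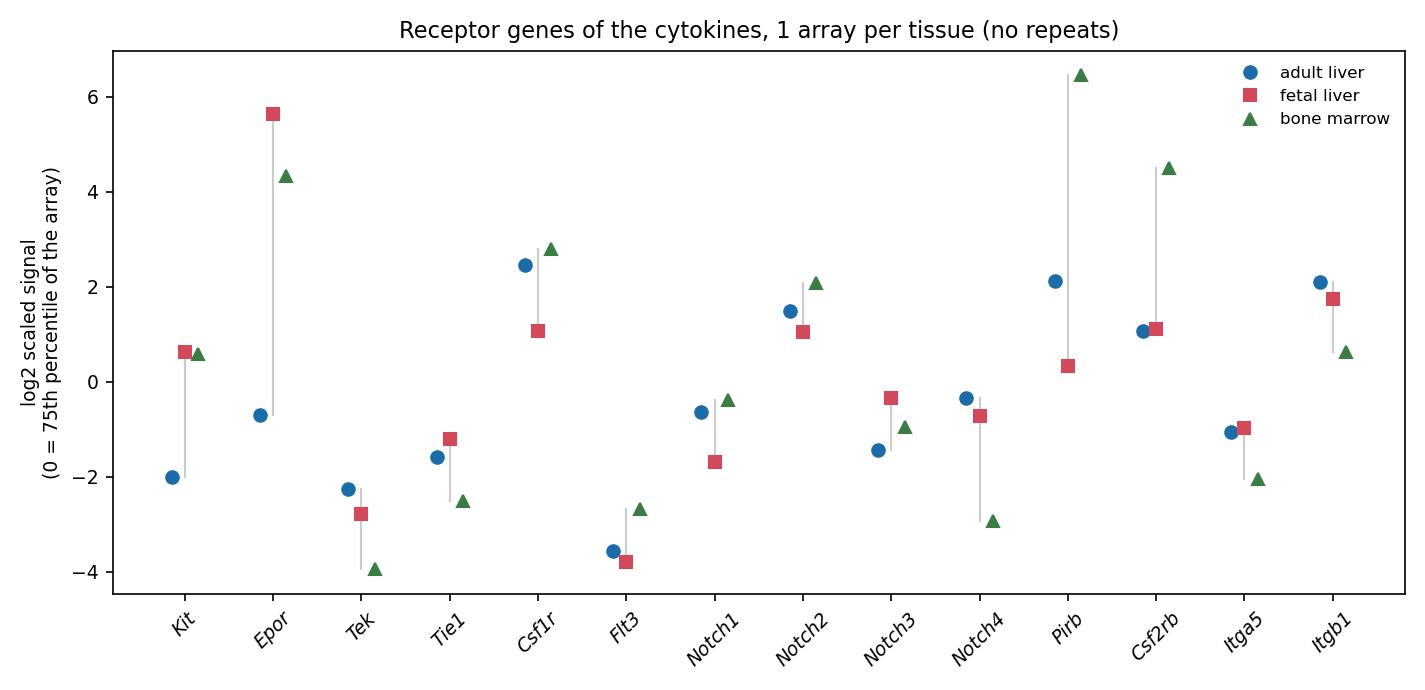
Log2 scaled signal of the 14 receptor genes in adult liver (circles), fetal liver (squares) and bone marrow (triangles), where 0 is the 75th percentile of the array and grey lines join the values of a gene. Each point is 1 array and has no biological repeat. Kit and Epor are low in adult liver, Pirb and Csf2rb stand out in marrow and Notch4 is low in marrow. Heights are not comparable between genes.

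The markers of the cells that carry these ligands and receptors moved with the tissues. Their part in the differences above was not tested, and in bulk RNA fewer cells of a type and less RNA per cell cannot be told apart. Summed scaled signals of 10 endothelial markers, Tek and Tie1 among them, were 32.7 in adult liver, 27.8 in fetal liver, with 4.48 in marrow. All 10 were well above background in each, and the sums below are given in the same order. In marrow 6 of the 10 were past 4-fold below fetal liver and 6 below adult liver. The shares of all genes were 9.33% and 18.8%. Pecam1 was highest in marrow (0.173, 0.141 and 0.247). All sums use the main scaling, on which the place of marrow depends. Spike-in signal over the 75th percentile stood -0.53 (fetal liver) and -2.84 (marrow) on log2 from adult liver. Spike-in scaling thus raises both tissues against adult liver. For 10 stellate and mesenchymal markers the sums were 50.4, 53.6 and 8.79, with 9, 8 and 6 well above background. For 10 marrow stroma markers they were 44.7, 11.6 and 46.1, with 2, 8 and 10 well above background. The chemokine Cxcl12 alone gave 43.2 of the adult liver sum, 8.32 of that of fetal liver and 38.0 of that of marrow, and the fat cell product Adipoq was well above background in marrow only. The leptin receptor Lepr marks marrow cells known to make Kitl. Its signals before scaling were 7.84 ± 4.84 (not well above background), 67.0 ± 7.69 and 301 ± 30.6. For megakaryocyte markers the sums were 3.88, 153 and 170, and for erythroid markers, beside Epor, 111, 1573 and 1004. For macrophage markers, beside Csf1 and with Csf1r itself in the list, they were 96.5, 54.1 and 44.9. The members of that list differ, since Cd5l gave 59.7 of the adult liver sum and Marco 32.4 of that of fetal liver. Adgre1 stood at 5.23, 3.83 and 13.9, and Csf1r at 5.53, 2.10 and 6.96, both highest in marrow. For neutrophil markers, beside Pirb and Csf2rb, the sums were 0.486, 64.1 and 1458. For hepatocyte and hepatoblast markers, beside Thpo, they were 1375, 759 and 0.524, with 8, 7 and 2 of 9 well above background. Afp, a product of hepatoblasts, gave 545 of the fetal liver sum and 0.334 of that of adult liver. Of the 9, 6 were past 4-fold towards adult and 2 towards fetal liver, where 14.1% and 12.1% of all genes were. In marrow the 2 of the 9 well above background were Afp and Hnf4a, at scaled signals of 0.364 and 0.108. The hepatocyte products Alb and Ttr were among those that were not. All 8 erythroid markers were well above background in fetal liver and marrow.

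Other ligands known from the niche were spread over both directions. Of 24 compared between fetal and adult liver, 5 were higher in fetal and 6 in adult liver by 4-fold or more, where 12.1% and 14.1% of all genes were. Igf2, a fetal growth factor, was 1858-fold higher in fetal liver (23.4 ± 3.02 against 56225 ± 1120, SD over repeat spots), Dlk1, a membrane protein of hepatoblasts, at least 357-fold, and the matrix protein Spp1 was 156-fold higher in adult liver. Against marrow, 6 of 26 were higher in fetal liver and 4 in marrow, beside 9.33% and 8.3% of all genes. Of those measured in both, Igf2 differed most towards fetal liver (348-fold) and Spp1 most towards marrow (198-fold), while Dlk1, not well above background in marrow, differed at least 886-fold towards fetal liver. Between adult liver and marrow 6 of 23 were higher in adult liver, the growth factor Igf1 most (52.2-fold), and 4 in marrow, Tgfb1 most (15.4-fold), against 18.8% and 15% of all genes. With spike-in scaling 3 of 25 were higher in fetal liver and 14 in marrow, and 1 of 23 in adult liver and 15 in marrow.

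Signalling genes downstream of the receptors gave the following counts past 4-fold, to be read against 12.1% of all genes towards fetal and 14.1% towards adult liver, 9.33% towards fetal liver and 8.3% towards marrow, and 18.8% towards adult liver and 15% towards marrow. JAK-STAT signalling carries the signal of Epor, though not every gene listed under it and its brakes does. Of 21 genes so listed, 6 were higher in fetal and 0 in adult liver. They were Myc (30.4-fold), Jak2, Cish, Pim1, Bcl2l1 and Erfe. Against marrow only Ptpn6, a phosphatase, was past it among 22 (7.77-fold higher in marrow). Between adult liver and marrow 6 of 21 were higher in marrow, led by Myc (21.1-fold), and Socs2, a feedback inhibitor, was 5.88-fold higher in adult liver. Of 17 Notch pathway genes, 3 were higher in fetal liver, namely the fringe enzymes Mfng (4.37-fold) and Lfng (at least 4.55-fold), which add sugars to Notch, and the transcription factor Gata3 (at least 5.36-fold), and 2 in adult liver, namely the gamma-secretase subunit Psen2 (12.5-fold) and Hes1 (at least 5.03-fold). Against marrow 1 of 19 was past it from fetal liver, Dtx1, at least 26.7-fold higher in marrow. Between adult liver and marrow 5 of 19 were higher in marrow, with Dtx1 at 8.97-fold (34.3 ± 5.72 against 928 ± 93.0) and Lfng at least 9.14-fold, and Psen2 was 23.3-fold higher in adult liver. Under normexp 0 Notch pathway genes were higher in fetal liver and 1 in adult liver, and between adult liver and marrow 1 in each. With spike-in scaling 13 JAK-STAT genes and 12 Notch pathway genes were higher in marrow than in fetal liver, and 19 and 16 than in adult liver.

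Genes listed under oxygen sensing, which sets Epo output, were past 4-fold towards adult liver only. Of 15 compared with fetal liver 5 were higher in adult liver, where 14.1% of all genes were, led by Epas1, which encodes HIF-2 alpha (10.2-fold). Of 16 compared with marrow 5 were higher in adult liver, where 18.8% of all genes were, led by Rxra (24.1-fold), and 0 of 16 were past it between fetal liver and marrow. Rxra and Hnf4a, transcription factor genes of this list, were among the 5 in both comparisons with adult liver. Hnf4a is also 1 of the hepatocyte and hepatoblast markers, so these counts are not of oxygen sensors alone. With spike-in scaling the count towards adult liver became 2 against fetal liver and 0 against marrow, where 8 were then higher in marrow, and 9 were higher in marrow than in fetal liver. Of 10 genes listed under shedding and clearance, not all of which act on cytokines themselves, 4 were higher in adult than in fetal liver, where 14.1% of all genes were. They were led by Asgr1 (357-fold), a chain of the receptor that takes up aged platelets and stimulates Thpo output. Its partner Asgr2 was 655-fold higher in adult liver and 35.5-fold higher in fetal liver than in marrow. Mmp9, a protease known to release soluble Kitl, was 424-fold higher in marrow than in fetal liver and at least 470-fold higher than in adult liver. Plg, the precursor of plasmin, was not well above background in marrow and was at least 4124-fold higher in adult and at least 423-fold higher in fetal liver.

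For the 5 genes well above background on all arrays, the 3 genes with the nearest pattern were taken among 11687 genes, by the Euclidean distance of mean-centred log2 signals over 3 arrays. Kitl was nearest to Dis3, E2f4 and Micall2 (distance 0.045 for Dis3), with 34 genes within 0.25. Thpo, read by its base 574 probe, was nearest to Hgsnat, Vmn1r192 and Cmc1, with 119 genes within 0.25. Csf1 was nearest to Vps4a, Klf11 and Ibtk, with 366. Flt3l was nearest to Slc40a1, Ncoa2 and Akap8l, with 261, and Jag1 to Higd2a, Adck1 and Acad9, with 267. With 3 arrays such likeness is a description of 3 values a gene.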

How the data were processed

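Total RNA of 3 tissues was measured on 1 array each. The scanner software was Agilent Feature Extraction 10.5.1.1, per the submitters' processing notes. Deposited signal intensity values of the scanner files are background-subtracted and on a linear scale, per the file headers, and are not normalized between arrays. The deposited error intensity and the p-value flags of the software stand beside it. The authors also deposited a table whose raw intensity column equals that error within 1% on 45018 of 45018 spots of each array. The authors' normalized ratio is this error divided by 29.3, 37.8 and 85.3, and the authors' fold column is the ratio to adult liver. The table served only as an alternative.

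From the scanner files, signals without outlier flags were averaged per probe on log2 and centred on the 75th percentile of gene spots, with numpy 2.4.6 and pandas 2.3.3 under Python 3.11.15. Figures were drawn with matplotlib 3.10.9. The normexp alternative used limma 3.58.1 in R 4.3.3. No spot was saturated. A probe counted as well above background where over 50% of its spots did. A gene was represented by the probe well above background on most arrays, then the brightest. Of the probes, 24844 were named by accession, 6045 by current symbol and 1796 by an older symbol; 8489 are unnamed here. Probe coordinates are those of the array files, on mm9.

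The members and all lists were chosen with earlier results of these data known, and nothing here is independent support for a pattern already seen. Named were every member and probe, every receptor, and for each other pathway list the gene with the greatest difference past 4-fold in a direction, genes measured in both tissues before bounds. Larger bounds and some further genes were named after their values were seen. Lepr, Cxcl12, Adipoq, Cd5l, Marco, Adgre1, Alb, Afp, Ttr, Umod and Slc12a1 were named as markers. Of the genes listed at the start, 2 are not reported here, and list counts leave them out. Alternatives were 4 other scalings, another background, 3 other probe rules, a 2-fold call and the deposited table. The computation was tested on simulated data. The precision is limited by the number of arrays, 3; SDs over spots and scanner errors are technical.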

Additional observations from a re-analysis of the deposited data

How the results depend on the processing

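No paired analysis was possible because each tissue has 1 array and no result comes from a test. The counts of cytokine genes past 4-fold, 1 between the livers, 0 between fetal liver and marrow and 1 between adult liver and marrow, moved as follows. Spike-in scaling gave 4 between fetal liver and marrow and 4 between adult liver and marrow. Normexp gave 0 between the livers and 0 between adult liver and marrow, and the deposited table's normalized column gave 0 between adult liver and marrow, where Kitl stood at -1.38 on log2. The mean of all probes gave 2 between the livers and 1 between fetal liver and marrow. The 2-fold call gave 4 between the livers and 3 between adult liver and marrow. Thpo read by its probe farthest along the transcript, an alternative chosen after seeing the data, gave 2, 1 and 2. Thpo between fetal liver and marrow reversed from -0.61 to 2.70 with the mean of all probes and to at least 6.07 with the farthest probe. The other alternatives, namely the median, the percentile over detected probes, quantile normalization, the brightest probe and detected probes only, left all 3 counts as they were. Of the single-gene values under alternatives, 156 kept direction and side of the mark, 14 passed it and 4 no longer passed it. Some of the 14 passed only because the mark was lowered to 2-fold, with their values unchanged. A further 6 changed direction without passing the mark, and 2 changed direction and passed it. Many of the 156 kept the main value by construction, since probe and signals stayed the same, and are no sign of stability. These came from the brightest probe, detected probes only, the 2-fold call and genes other than Thpo under its farthest probe. Genes with 1 probe could not move under the mean of all probes either. Signals near 20 scanner units limit Kitl in adult liver, Angpt1, Angptl2 and Epo; no repeat of any tissue limits all.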
